A study of Mus musculus with 24 samples.

Results

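The genes described here are 40 mouse genes of the cell division cycle, measured in whole liver after 8 weeks on different diets. They were chosen by name, for their known roles in DNA replication, mitosis and cyclin control, and all 40 were found among the 34436 genes of the deposited read count table. By role, 4 are G1 cyclins, 3 restrain or dephosphorylate cyclin-dependent kinases, 9 build and run replication forks, 4 supply deoxynucleotides, 17 act in mitosis and 3 are transcription factors.

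The livers came from wild-type C57BL/6 mice that started 1 of 6 diets at 8 to 10 weeks of age. The diets analysed here were normal chow (NC, 4 libraries), high sucrose (HS, 5 libraries), high sucrose with 2% cholesterol (HS_Chol, 3 libraries), 2% cholesterol with cholic acid (Chol_CA, 4 libraries) and cholic acid alone (CA, 4 libraries). The high sucrose diet with both cholesterol and cholic acid, and 1 of 4 samples labelled HS_Chol, were not analysed here because no column of the table could be tied to them. One sample titled as high sucrose carries a normal chow diet label and could not be tied to a single column, so the 5 HS libraries were kept as titled. Sex, the share of cholic acid in the diet and whether each library came from a separate animal are not given in the sources used here, so the p-values measure the spread between these libraries. Libraries are numbered from 0, as in the table.

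Cyclins switch on cyclin-dependent kinases in a fixed order: D-type cyclins carry a resting cell through G1, E-type cyclins and the MCM helicase take it into S phase, and cyclins A and B with Cdk1 take it through G2 and mitosis. Most hepatocytes of an adult liver rest outside the cycle and re-enter it after injury or loss of tissue, while resident and recruited macrophages, T cells, stellate cells and bile duct cells can also divide. Replication genes are classically activated by E2F factors in late G1, and mitotic genes by the MuvB complex with B-Myb and FoxM1, which acts through a CHR element (cell cycle genes homology region) next to CCAAT boxes. In bulk RNA, fewer cells of a type and less RNA per cell cannot be told apart.

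Promoters of 3 helicase genes and 3 mitotic genes are shown because these roles hold most of the members called below and the windows shown carry different elements. Cdk1, which is among them, was not called with all libraries in the fit. Each runs from 250 bases before to 50 after the gene start (RefSeq, GRCm38.p6) and is written 5′ to 3′ on the gene's own strand. Capitals mark E2F octamers (TTTCGCGC, TTTGGCGC, TTTCCCGC or TTTGCCGC) and CHR elements (TTTGAA or TTCGAA) on either strand. Mcm3, Mcm5 and Mcm6 encode subunits of the replicative helicase and lie at chr1:20820263-20820562 on the minus strand, chr8:75109259-75109558 on the plus strand and chr1:128359656-128359955 on the minus strand.
Mcm3: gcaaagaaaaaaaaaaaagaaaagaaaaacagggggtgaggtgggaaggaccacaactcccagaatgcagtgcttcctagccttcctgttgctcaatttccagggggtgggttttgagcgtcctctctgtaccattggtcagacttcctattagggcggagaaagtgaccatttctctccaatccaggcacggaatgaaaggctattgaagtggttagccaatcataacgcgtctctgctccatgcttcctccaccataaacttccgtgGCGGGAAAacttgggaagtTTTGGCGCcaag
Mcm5: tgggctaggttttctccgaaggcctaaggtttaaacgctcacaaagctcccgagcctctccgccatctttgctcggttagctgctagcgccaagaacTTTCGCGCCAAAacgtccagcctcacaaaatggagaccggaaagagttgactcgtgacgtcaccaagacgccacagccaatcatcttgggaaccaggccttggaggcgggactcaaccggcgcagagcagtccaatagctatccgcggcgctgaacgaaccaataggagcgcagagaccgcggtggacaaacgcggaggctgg
Mcm6: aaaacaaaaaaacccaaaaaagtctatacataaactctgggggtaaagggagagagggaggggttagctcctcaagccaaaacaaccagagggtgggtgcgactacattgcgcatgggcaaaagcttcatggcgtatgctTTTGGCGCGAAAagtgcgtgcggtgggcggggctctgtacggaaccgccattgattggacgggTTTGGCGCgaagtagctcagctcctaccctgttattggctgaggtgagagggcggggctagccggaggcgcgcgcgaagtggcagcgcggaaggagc

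The mitotic examples are Cdk1, the kinase that drives entry into mitosis (chr10:69352863-69353162), its partner cyclin B2 (Ccnb2, chr9:70421505-70421804) and topoisomerase II alpha (Top2a, chr11:99024140-99024439), which untangles sister chromatids. All 3 lie on the minus strand.
Cdk1: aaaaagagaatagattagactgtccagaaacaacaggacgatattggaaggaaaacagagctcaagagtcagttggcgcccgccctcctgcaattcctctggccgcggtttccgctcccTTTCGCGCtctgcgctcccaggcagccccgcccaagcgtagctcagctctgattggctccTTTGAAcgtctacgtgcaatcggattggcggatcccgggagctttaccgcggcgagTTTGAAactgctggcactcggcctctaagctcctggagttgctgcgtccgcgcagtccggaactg
Ccnb2: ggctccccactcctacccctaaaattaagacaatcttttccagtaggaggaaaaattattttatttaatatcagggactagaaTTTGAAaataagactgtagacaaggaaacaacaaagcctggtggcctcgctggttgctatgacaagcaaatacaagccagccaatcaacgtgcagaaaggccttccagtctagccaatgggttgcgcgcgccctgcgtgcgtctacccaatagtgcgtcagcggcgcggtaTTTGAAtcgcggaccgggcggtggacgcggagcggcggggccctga
Top2a: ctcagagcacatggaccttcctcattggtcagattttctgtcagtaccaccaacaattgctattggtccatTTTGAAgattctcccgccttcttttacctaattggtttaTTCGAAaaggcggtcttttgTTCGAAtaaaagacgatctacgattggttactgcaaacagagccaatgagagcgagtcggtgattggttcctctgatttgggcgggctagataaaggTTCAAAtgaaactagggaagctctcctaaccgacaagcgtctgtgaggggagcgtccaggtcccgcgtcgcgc

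The Mcm3 window held 2 E2F octamers, that of Mcm5 held 2 and that of Mcm6 held 3, counting matches on both strands that partly overlap, and none of these windows held a CHR element. The Cdk1 window held 1 E2F octamer and 2 CHR elements, that of Ccnb2 held 2 CHR elements and that of Top2a held 4. A window was found for 31 of the 40 members. Mcm4, Ccna2, Aurkb, Kif20a, Foxm1, Mybl1, Ccnd1, Ccnd2 and Ccne2 had none. An E2F octamer was present in 5 of 8 windows of replication fork members and in 1 of 14 windows of mitotic members, against 2.32% of 27025 gene windows. A CHR element was present in 11 of 14 mitotic windows, each with a CCAAT box (CCAAT, either strand), and in 3 of 8 replication fork windows. Of the helicase genes not shown, Mcm2 held a CHR element and no E2F octamer, and Mcm7 held both. Across all genes 19.4% of windows held a CHR element, 37.9% a CCAAT box and 7.7% both. These matches describe letters in the windows, and binding by any factor was not measured.

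The 20 libraries held 6110484 to 10244277 reads in genes (median 7639777), and the 40 members took between 751 and 3619 reads in a library. Of the 40 members, 36 had enough reads to be tested, and Cdkn3, Cdc6, Ccnb1 and Mybl2 did not. Counts were scaled to CPM (reads for every 1e+06 reads of the TMM-normalized library), and each diet was compared with edgeR's quasi-likelihood test over 12595 genes. Here "rose", "fell" and "called" mean a Benjamini-Hochberg adjusted p under 0.05. Log2 fold changes are given ± standard error. In 8 libraries read counts leaned towards short transcripts and in 12 towards long ones. The first set held NC library 3, HS libraries 0 to 2, HS_Chol library 0, CA library 0 and Chol_CA libraries 0 and 1. Libraries were placed by the sign of a rank correlation with transcript length alone. It was near 0 in HS_Chol library 0 (-0.027) and in CA library 3 (0.031). Fits within the other 12 libraries, called long-leaning here, are given where they end a call against chow. All 3 HS_Chol libraries also stood apart in mitochondrial light-strand transfer RNA reads, with 673 to 900 for every 1e+06 heavy-strand messenger reads against 8.95 to 83.4 elsewhere.

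On chow the members were mostly expressed at a low level. Per kilobase of the longest annotated transcript, cyclin D1 (Ccnd1) was highest with a mean of 10.5 CPM per kilobase, followed by the replication clamp Pcna at 7.61 and thymidine kinase Tk1 at 3.23. The proliferation marker Mki67 had 0.437 and Cdk1 0.343 CPM per kilobase, and Mybl2 had no read in 4 chow libraries. Library 0 of the chow diet was unlike the other 3. Summed over the 17 mitotic members it held 45.8 CPM against 10.7, 11.3 and 18.04, while its summed replication and nucleotide members, at 59.4 to 73.0 CPM over the 4 libraries, did not stand apart.

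On cholic acid alone, with all libraries in the fit, the members called were regulators of G1 and 1 transcription factor. No replication or mitotic member was called in that fit. Cyclin D1, the kinase inhibitors p21 (Cdkn1a) and p18 (Cdkn2c) and the Myb-family factor Mybl1 were higher than on chow, and no member was lower (by edgeR and by DESeq2). These are 4 of 36 members tested, where 5.22% of all 12595 genes tested were called higher and 4.61% lower. Mybl1 passed the filter on low counts only through the 2 cholic acid diets, so its being tested rested on diets where it was high. Of the 22 members that passed through other diets too, 3 were called. The median log2 fold change of the members was 0.59, against 0.01 over all genes, and 28 of 36 were above 0. Without CA library 3 the median was 0.137 with 19 of 34 above 0, and without chow library 0 it was 0.970. The mitotic member Mki67 was also called higher without chow library 0. With only the 2 compared diets in the fit Cdkn1a lost its call and Mybl1 was not tested. Groups did not overlap for 5 members that were higher, against 7.23% of all genes.

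Cholesterol with cholic acid was followed by higher expression of members of nearly every role. Of 36 members 18 rose and none fell against chow, where 15% of all genes rose and 9.35% fell. The 18 were Ccnd1 and Ccnd2, Cdkn1a, the helicase subunits Mcm2 to Mcm6, 8 mitotic genes (Mki67, Top2a, Prc1, Ccnb2, Aurkb, Birc5, Bub1 and Bub1b) and the factors Foxm1 and Mybl1. The median log2 fold change was 1.41, against a median close to 0 over all genes, and the 4 Chol_CA libraries did not overlap the 4 chow libraries for 12 members, against 14.3% of all genes. Of the tested members, 14 passed the filter on low counts only through libraries of the 2 cholic acid diets. Of these 14, 7 rose, against 11 of the other 22. The 7 were Ccnb2, Aurkb, Prc1, Bub1, Bub1b, Foxm1 and Mybl1, so that their being tested rested on the diets where they were high. With a filter that does not look at diet (20 reads over all libraries), 19 of 40 members and 13.8% of 15239 genes rose. Of the 7, Foxm1 lost its call there.

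The set of called members depended on a few libraries. Without Chol_CA library 0, the number called higher against chow went from 18 to 10, and without chow library 0 it went to 22. Over all genes 12.1% and 13.2% rose in these fits. Within the 12 libraries whose counts leaned towards long transcripts (2 Chol_CA, 3 chow), 6 of 34 members and 12.7% of all genes rose. The 6 were Mcm3, Mcm5, Mcm6, Mybl1, Cdkn1a and Ccnd2. The median log2 fold change of the members there was 0.4928 with 30 of 34 above 0. With only the 2 compared diets in the fit 10 of 31 members and 11.9% of all genes rose. Ccnd2, Mcm4, Birc5, Prc1 and Foxm1 were tested there but not called.

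With all libraries in the fit, the members called between the 2 cholic acid diets were replication genes. Against cholic acid alone 8 members were higher, namely Mcm2, Mcm3, Mcm5, Mcm6, Mcm7, Pcna and both ribonucleotide reductase subunits Rrm1 and Rrm2, and none was lower. Over all genes 13.4% were higher and 7.8% lower. No mitotic member was called by edgeR, where 6 had an unadjusted p under 0.05 and DESeq2 called Mki67. The median log2 fold change over all 36 was 0.79 and 33 were above 0. It was 0.395 without Chol_CA library 0 and 0.034 within the 12 long-leaning libraries, where 18 of 34 were above 0. Those 12 keep CA library 3 (mitotic sum 74.0 CPM) and leave out Chol_CA libraries 0 and 1 (132 and 94.4 CPM). Groups did not overlap for 3 members that were higher and 1 that was lower, against 12.1% and 7.22% of all genes. The number called ranged from 2 to 11 when 1 library was left out, with 2 each without CA library 2 or Chol_CA library 0, 3 without CA library 1, 4 without Chol_CA library 1 and 5 without CA library 0. Within the 12 long-leaning libraries, and also with only the 2 compared diets in the fit, the number of members called higher was 2, Mcm6 and Mcm7. Over all genes 13.9% and 8.85% were higher in these 2 fits, and 7.66% to 15.5% with 1 library left out. Without CA library 3, Mcm3, Mcm7, Pcna and Rrm1 lost their calls and the mitotic members Ccna2, Bub1b, Mki67, Top2a and Kif11 were called. Without Chol_CA library 3 the mitotic members Bub1b, Mki67 and Top2a were called besides the 8.

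The 2 high sucrose diets called none of the 36 members in either direction. By edgeR 4 members on HS and 3 on HS_Chol had an unadjusted p under 0.05 against chow, and DESeq2 called 0 in each. Over all genes, 0.214% were called higher and 0.437% lower on HS, and 1.71% higher and 0.564% lower on HS_Chol. The effect of cholesterol on the sucrose diet (HS_Chol against HS) called none either, with 5 members under an unadjusted p of 0.05 and 0 by DESeq2, where 1.6% of genes were higher and 0.651% lower. HS_Chol and chow libraries did not overlap for 2 members, Mcm2 higher and Cdkn2c lower, against 6.83% of all genes higher and 5.57% lower.

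**Figure D1:**
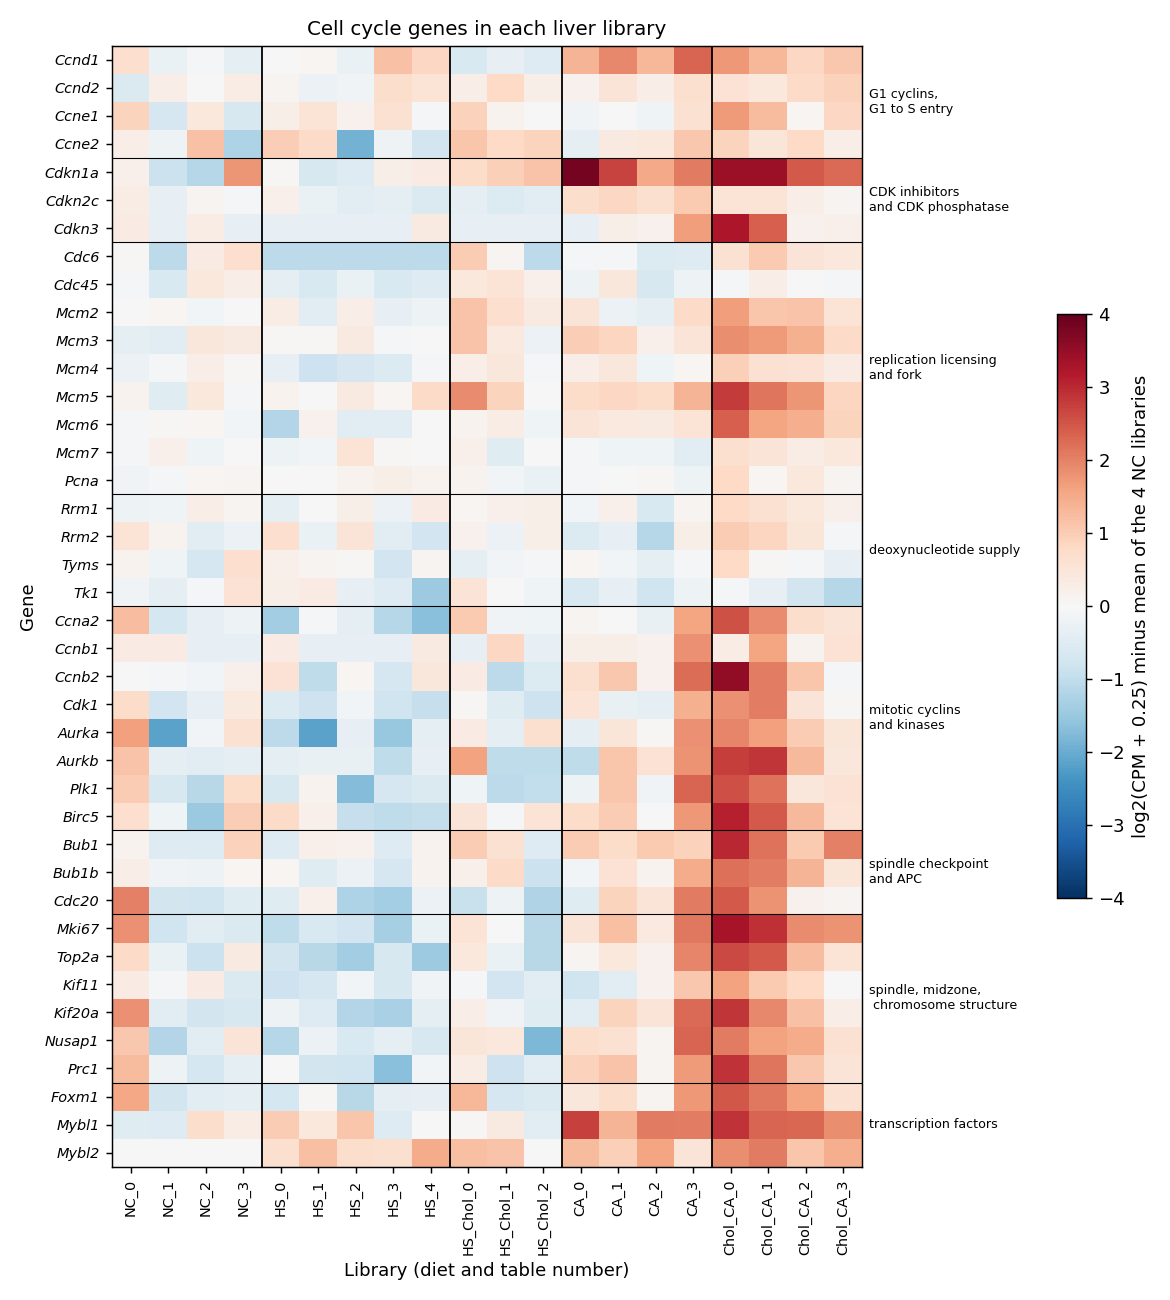
Expression of the 40 members in each of 20 libraries, as log2(CPM + 0.25) minus the mean of the 4 chow libraries, with members in rows by role and libraries in columns by diet. Mitotic members are highest in Chol_CA libraries 0 and 1, and CA library 3 and chow library 0 are above the other libraries of their diets.

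Among the G1 cyclins, Ccnd1 encodes cyclin D1, the partner of Cdk4 and Cdk6 that answers mitogens. It stood at 59.7, 31.6, 36.4 and 29.7 CPM in the 4 chow libraries, 98.3, 144, 95.5 and 192 CPM on cholic acid and 127, 94.9, 67.8 and 80.6 CPM on cholesterol with cholic acid. Each library of the 2 cholic acid diets was above each chow library. The rise was called on both diets (log2 fold change 1.75 ± 0.31, adjusted p = 0.00108 on CA and log2 fold change 1.23 ± 0.31, adjusted p = 0.00546 on Chol_CA), and the 2 diets were not called different from each other (log2 fold change -0.52 ± 0.303, adjusted p = 0.258). Within the 12 libraries leaning towards long transcripts the Chol_CA rise was 0.79 with an adjusted p of 0.129, and the CA rise kept its call, at 1.76. On the sucrose diets Ccnd1 stood at 38.001, 40.2, 31.4, 85.7 and 67.2 CPM without and 24.8, 30.4 and 26.4 CPM with cholesterol, so that all HS_Chol libraries were below all HS libraries, which edgeR did not call (log2 fold change -0.95 ± 0.33, adjusted p = 0.188). Of the 50-base windows of the Ccnd1 transcript 27.2% are shared with LTO1 on the opposite strand, so reads of the 2 genes may not be separable.

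Cyclin D2 (Ccnd2) rose on cholesterol with cholic acid from 8.24 ± 2.098 to 13.004 ± 1.89 CPM (mean ± SD, n = 4 each; log2 fold change 0.66 ± 0.23, adjusted p = 0.0412), a call that was lost without chow library 0 or 2 or without Chol_CA library 0, 2 or 3. On cholic acid alone it stood at 10.8 ± 1.698 CPM and was not called. Cyclin E1 (Ccne1), which with Cdk2 fires S phase entry, had 1.72, 0.415, 1.17 and 0.426 CPM on chow, 0.705, 0.824, 0.691 and 1.38 CPM on CA and 3.18, 2.29, 0.879 and 1.62 CPM on Chol_CA. Its Chol_CA libraries overlapped chow, and the difference was not called (log2 fold change 1.06 ± 0.45, adjusted p = 0.0953). The HS libraries had 0.996, 1.303, 0.941, 1.36 and 0.7497 CPM and the HS_Chol libraries 1.76, 0.907 and 0.8205 CPM. Cyclin E2 (Ccne2) was not called in any comparison, with means of 0.843 CPM on chow and 1.18 CPM on Chol_CA.

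**Figure D2:**
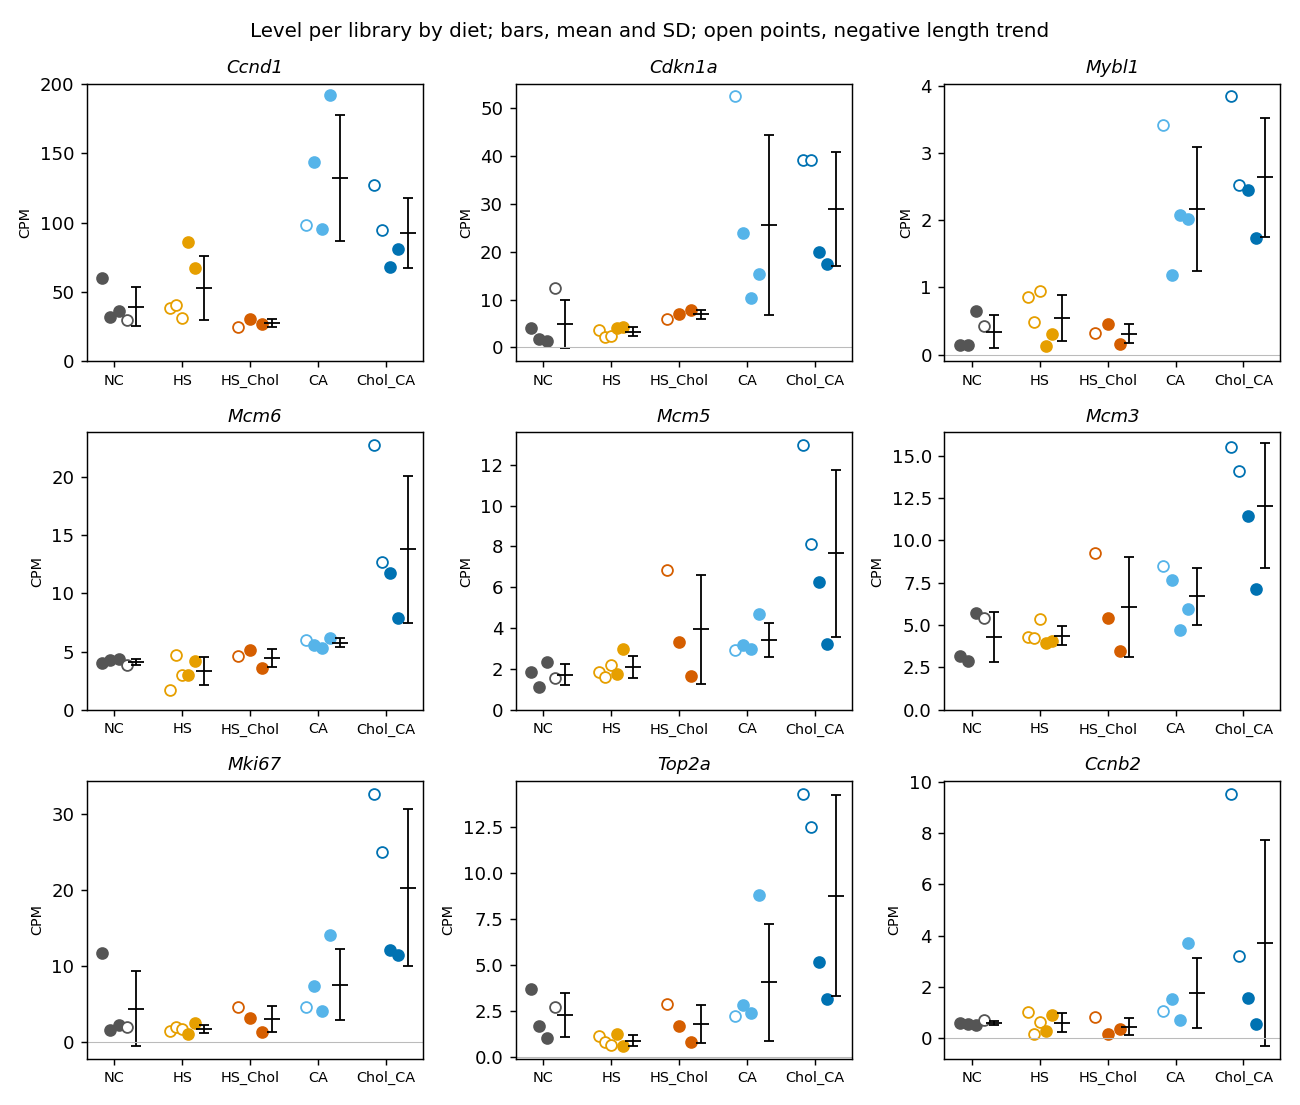
Expression of selected members in every library, in CPM, by diet, with points for libraries and bars for the diet mean ± SD. Ccnd1 is above chow in each library of both cholic acid diets, Mcm6 is above chow in each Chol_CA library, and Mki67 in chow library 0 (11.7) lies above the other 3 chow libraries (1.66 to 2.20).

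Cdkn1a encodes p21, an inhibitor of cyclin-Cdk2 and a classic target of p53. It stood at 4.01, 1.8002, 1.43 and 12.4 CPM on chow, with library 3 above the rest, at 52.4, 23.8, 10.4 and 15.4 CPM on CA and at 39.2, 39.1, 19.9 and 17.4 CPM on Chol_CA. The 4 Chol_CA libraries were above all chow libraries, whereas CA library 2 lay below chow library 3. Cdkn1a rose on both diets (log2 fold change 2.38 ± 0.54, adjusted p = 0.00747 on CA and log2 fold change 2.56 ± 0.55, adjusted p = 0.00144 on Chol_CA), and the 2 diets were not called different (log2 fold change 0.18 ± 0.49, adjusted p = 0.844). It kept both calls within the 12 libraries leaning towards long transcripts, which leave out chow library 3, with log2 fold changes of 2.78 and 2.95, and lost the CA call with only the 2 compared diets in the fit. In the HS libraries it had 3.56, 2.12, 2.35, 4.08 and 4.35 CPM and in the HS_Chol libraries 5.91, 6.95 and 7.88 CPM.

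Cdkn2c encodes p18, an inhibitor of Cdk4 and Cdk6, the partners of cyclin D. Its levels were 5.87, 3.74, 5.19 and 4.54 CPM on chow, 7.88, 8.71, 7.502 and 10.1 CPM on CA and 7.15, 7.11, 5.76 and 5.195 CPM on Chol_CA. The CA libraries were above all chow libraries (log2 fold change 0.82 ± 0.19, adjusted p = 0.00897) and the Chol_CA libraries overlapped them (log2 fold change 0.38 ± 0.195, adjusted p = 0.18). Sucrose libraries had 5.55, 3.91, 3.45, 3.67 and 3.15 CPM without and 3.67, 3.17 and 3.45 CPM with cholesterol. All HS_Chol libraries lay below all chow libraries, a difference that was not called (log2 fold change -0.49 ± 0.23, adjusted p = 0.393). Cdkn3, a phosphatase that acts on Cdk1 and Cdk2, was too low to test: it had 2 reads over the chow libraries, 9 over CA and 34 over Chol_CA, of which libraries 0 and 1 held 20 and 12. The ratio of Chol_CA to chow was 13.8, with a 95% interval of 3.53 to 118 that covers counting error only.

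Of 8 tested replication fork members 5 rose on Chol_CA against chow and 6 against CA, where 15% and 13.4% of all genes rose. On CA none was called against chow by edgeR or DESeq2, and 2 (Mcm3 and Mcm5) had an unadjusted p under 0.05. By edgeR 5.22% of all genes rose and 4.61% fell on CA. The minichromosome maintenance proteins Mcm2 to Mcm7 form the ring helicase that is loaded on origins in G1. Mcm6 had 4.01, 4.29, 4.41 and 3.83 CPM on chow, 5.99, 5.53, 5.33 and 6.16 CPM on CA and 22.8, 12.7, 11.7 and 7.901 CPM on Chol_CA. Neither chow nor CA libraries reached the lowest Chol_CA library, and the rise was called against chow (log2 fold change 1.73 ± 0.28, adjusted p = 0.000117) and against CA (log2 fold change 1.25 ± 0.27, adjusted p = 0.00255). Both calls held in every alternative that was run. The HS libraries had 1.71, 4.72, 2.98, 2.99 and 4.198 CPM and the HS_Chol libraries 4.63, 5.14 and 3.61 CPM of Mcm6, and both overlapped chow.

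Mcm5 stood at 1.86, 1.11, 2.33 and 1.56 CPM on chow, 2.94, 3.18, 2.96 and 4.67 CPM on CA and 12.98, 8.14, 6.25 and 3.25 CPM on Chol_CA. Both cholic acid diets were above chow in each library, and the difference was called for Chol_CA (log2 fold change 2.13 ± 0.41, adjusted p = 0.000601) but not for CA (log2 fold change 0.99 ± 0.42, adjusted p = 0.167). Against CA the Chol_CA libraries overlapped, with a called rise of 1.14 ± 0.38 (adjusted p = 0.036) that was lost without CA library 0, 1 or 2 or Chol_CA library 0 or 1. It was also lost with the length trend as a term, with only the 2 compared diets, and within the long-leaning libraries, where it was 0.39 with an adjusted p of 0.465. Sucrose libraries held 1.85, 1.63, 2.196, 1.77 and 2.999 CPM without cholesterol and 6.87, 3.32 and 1.64 CPM with it.

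Mcm3 had 3.15, 2.91, 5.71 and 5.397 CPM on chow, 8.46, 7.65, 4.74 and 5.95 CPM on CA and 15.5, 14.1, 11.4 and 7.14 CPM on Chol_CA. Its rise was called on Chol_CA (log2 fold change 1.48 ± 0.298, adjusted p = 0.000884) and not on CA (log2 fold change 0.63 ± 0.302, adjusted p = 0.225). HS libraries had 4.27, 4.24, 5.33, 3.95 and 4.05 CPM and HS_Chol libraries 9.26, 5.44 and 3.45 CPM. For Mcm2 the values were 3.15, 3.32, 2.85 and 3.12 CPM on chow, 4.58, 2.59, 2.37 and 5.42 CPM on CA and 10.5, 6.99, 7.23 and 4.65 CPM on Chol_CA, where it rose (log2 fold change 1.23 ± 0.29, adjusted p = 0.00342). All HS_Chol libraries of Mcm2, at 7.19, 5.14 and 4.102 CPM, were above all chow and all HS libraries (3.84, 2.28, 3.76, 2.45 and 2.699 CPM), and neither difference was called (log2 fold change 0.81 ± 0.32, adjusted p = 0.26 against chow and log2 fold change 0.86 ± 0.305, adjusted p = 0.196 against HS). Mcm4 rose on Chol_CA with a smaller change (log2 fold change 0.65 ± 0.204, adjusted p = 0.0245), a call lost without chow library 0 or 1 or Chol_CA library 0. Within the long-leaning libraries neither Mcm2 (0.92, adjusted p = 0.0589) nor Mcm4 (0.47, adjusted p = 0.220) was called against chow by edgeR.

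Mcm7 had a smaller log2 fold change against chow than the other helicase subunits, a difference that was not tested. It had 7.73, 9.28, 7.003 and 7.95 CPM on chow, 7.76, 7.07, 7.01 and 5.74 CPM on CA and 12.5, 11.6, 9.77 and 10.7 CPM on Chol_CA. The Chol_CA libraries were above all others of these 3 diets, which was called against CA (log2 fold change 0.69 ± 0.18, adjusted p = 0.0102) and not against chow (log2 fold change 0.48 ± 0.18, adjusted p = 0.0652). HS libraries had 6.83, 7.33, 11.8, 8.16 and 7.95 CPM and HS_Chol libraries 9.26, 5.59 and 8.04 CPM. Pcna, the sliding clamp of the polymerases, had 10.5, 11.2, 12.2 and 12.4 CPM on chow, 10.9, 11.3, 12.04 and 9.99 CPM on CA and 20.1, 12.3, 15.4 and 12.4 CPM on Chol_CA. It was called against CA (log2 fold change 0.44 ± 0.15, adjusted p = 0.0406) and not against chow (log2 fold change 0.38 ± 0.15, adjusted p = 0.0753), with 11.7, 11.7, 12.9, 13.5 and 12.7 CPM on HS and 12.8, 10.6 and 9.52 CPM on HS_Chol. Of the 50-base windows of Mcm7 34.2% and of Pcna 31.8% occur in other genes, pseudogenes among them, and reads there may be lost or shared.

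Cdc45, which activates the helicase, was not called in any comparison and had means of 1.44 CPM on chow and 1.43 CPM on Chol_CA. Cdc6, which loads the helicase, was too low to test, with 9 reads over chow, 0 over HS, 7 over HS_Chol, 6 over CA and 20 over Chol_CA. The Chol_CA to chow ratio of Cdc6 was 1.80 with a 95% counting interval of 0.783 to 4.49.

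Of the 4 deoxynucleotide genes none was called against chow on either cholic acid diet by edgeR or DESeq2. By edgeR 5.22% of all genes rose and 4.61% fell on CA, and 15% rose and 9.35% fell on Chol_CA. At an unadjusted p under 0.05 the count of the 4 genes was 0 on CA and 1 on Chol_CA (Rrm1). Rrm1 and Rrm2 encode the large and small subunits of ribonucleotide reductase. Rrm2 had 5.58, 4.15, 2.72 and 3.12 CPM on chow, 2.47, 2.94, 1.58 and 4.46 CPM on CA and 7.82, 6.99, 5.37 and 3.57 CPM on Chol_CA. It was called higher on Chol_CA than on CA (log2 fold change 1.04 ± 0.35, adjusted p = 0.0399) but not than on chow (log2 fold change 0.603 ± 0.35, adjusted p = 0.239), and the Chol_CA and CA libraries overlapped. Sucrose libraries had 6.12, 3.095, 5.49, 2.72 and 2.099 CPM without and 4.31, 3.17 and 4.43 CPM with cholesterol. Rrm1 stood at 8.45, 8.59, 11.7 and 10.7 CPM on chow, 8.93, 11.3, 6.32 and 10.6 CPM on CA and 17.1, 15.1, 13.3 and 11.3 CPM on Chol_CA, and rose against CA (log2 fold change 0.61 ± 0.19, adjusted p = 0.0299). Its sucrose levels were 7.401, 9.61, 11.6, 8.2998 and 12.3 CPM on HS and 10.4, 11.3 and 11.5 CPM on HS_Chol.

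Thymidylate synthase (Tyms) and thymidine kinase (Tk1) make thymidine monophosphate by the de novo and the salvage route. Tyms had 3.87, 3.05, 2.07 and 5.68 CPM on chow, 3.64, 3.18, 2.57 and 3.29 CPM on CA and 6.23, 3.55, 3.22 and 2.71 CPM on Chol_CA, with all 3 diets overlapping and no call (log2 fold change 0.09 ± 0.302, adjusted p = 0.869 on Chol_CA). In the HS libraries it had 3.99, 3.75, 3.61, 1.905 and 3.75 CPM and in the HS_Chol libraries 2.56, 3.17 and 3.28 CPM. Tk1 had means of 8.04 ± 2.602 CPM on chow and 5.39 ± 1.78 CPM on Chol_CA (SD, n = 4 each), a log2 fold change of -0.58 ± 0.33 that was not called (adjusted p = 0.221). With the direction of the length trend as a term in the fit, Tk1 was called lower on Chol_CA than on chow.

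**Figure D3:**
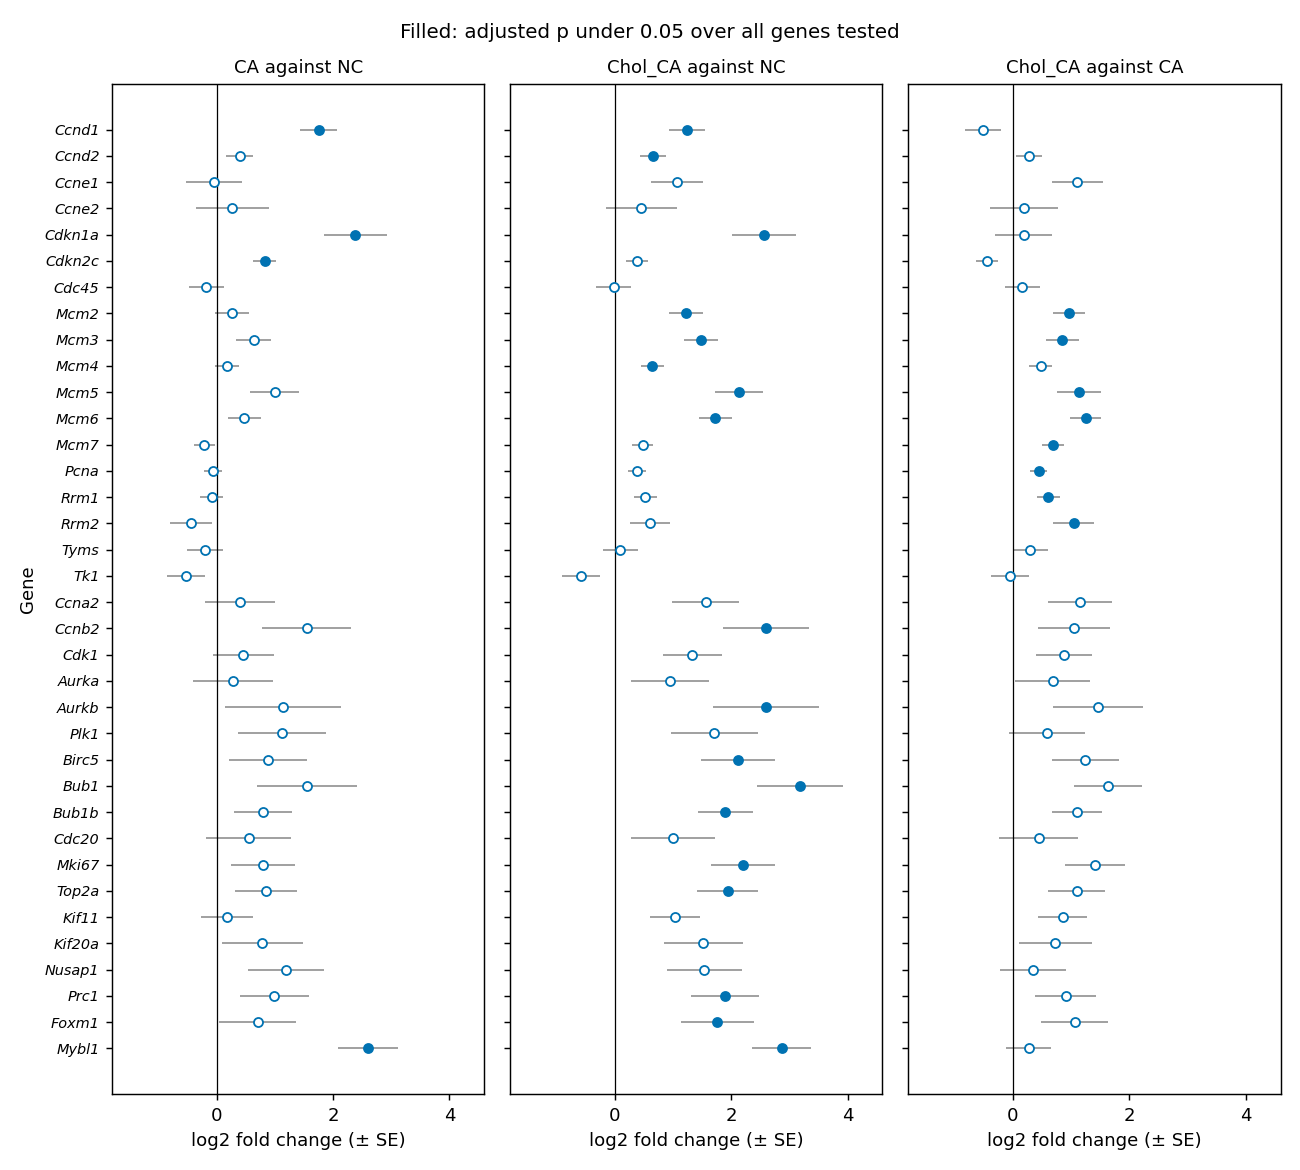
Log2 fold changes against chow for the 36 tested members on cholic acid and on cholesterol with cholic acid, with bars for ± 1 standard error and filled symbols for an adjusted p under 0.05 (edgeR). The chow libraries are shared by both comparisons. On cholic acid the called members are Ccnd1, Cdkn1a, Cdkn2c and Mybl1, and on cholesterol with cholic acid 18 members are called, all higher.

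Several mitotic members were uneven between the libraries of a diet. Mki67, which encodes the Ki-67 protein that coats mitotic chromosomes, had 11.7, 1.66, 2.204 and 1.99 CPM on chow, 4.58, 7.42, 4.15 and 14.1 CPM on CA and 32.6, 24.99, 12.1 and 11.5 CPM on Chol_CA. All Chol_CA libraries were above chow libraries 1 to 3, and Chol_CA library 3 lay just below chow library 0. The rise on Chol_CA was called (log2 fold change 2.205 ± 0.55, adjusted p = 0.00499) and held when any 1 library was left out, and it was 1.18 with an adjusted p of 0.334 within the 12 libraries leaning towards long transcripts. Mki67 was not called on CA (log2 fold change 0.79 ± 0.55, adjusted p = 0.46) or between the 2 cholic acid diets (log2 fold change 1.41 ± 0.52, adjusted p = 0.0572). Without chow library 0 edgeR called it higher on CA (adjusted p = 0.027). Between the 2 cholic acid diets it was called without CA library 3 or without Chol_CA library 2 or 3. On HS it had 1.42, 1.96, 1.73, 1.09 and 2.55 CPM and on HS_Chol 4.63, 3.17 and 1.31 CPM.

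Top2a stood at 3.72, 1.66, 1.04 and 2.698 CPM on chow, 2.23, 2.83, 2.37 and 8.82 CPM on CA and 14.3, 12.5, 5.18 and 3.14 CPM on Chol_CA. Chow library 0 lay above the lowest Chol_CA library. Its Chol_CA rise was called (log2 fold change 1.94 ± 0.52, adjusted p = 0.00913), and it was 0.96 with an adjusted p of 0.330 within the libraries leaning towards long transcripts. The HS libraries had 1.14, 0.815, 0.627, 1.22 and 0.5998 CPM and the HS_Chol libraries 2.87, 1.66 and 0.8205 CPM. Prc1, which bundles the microtubules of the midzone, also rose on Chol_CA (log2 fold change 1.89 ± 0.58, adjusted p = 0.0201), while the spindle genes Kif11, Kif20a and Nusap1 were not called, with log2 fold changes of 1.03, 1.51 and 1.54. The call of Prc1 was lost without chow library 1 or 2 or Chol_CA library 0, and within the long-leaning libraries its change was 0.52 with an adjusted p of 0.636. Of the Kif20a windows 31.2% are shared with Cdc23 on the opposite strand.

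Of the mitotic cyclins and kinases, Cdk1 had 2.43, 0.692, 1.04 and 1.85 CPM on chow, 2.12, 1.06, 0.987 and 4.04 CPM on CA and 5.43, 6.42, 2.05 and 1.41 CPM on Chol_CA. The diets overlapped, and the Chol_CA difference was not called (log2 fold change 1.33 ± 0.51, adjusted p = 0.0639). Its level was 0.854, 0.652, 1.25, 0.6803 and 0.5998 CPM on HS and 1.44, 0.907 and 0.656 CPM on HS_Chol. Cyclin B1 (Ccnb1), the main partner of Cdk1, was too low to test, with 0.143, 0.138, 0 and 0 CPM on chow, 0.118, 0.118, 0.0987 and 0.8499 CPM on CA and 0.132, 0.688, 0.0977 and 0.216 CPM on Chol_CA. It had 2 reads over chow, 11 over CA, 8 of them in library 3, and 10 over Chol_CA, and the sucrose diets had 2 reads each (0.142, 0, 0, 0 and 0.1499 CPM on HS and 0, 0.302 and 0 CPM on HS_Chol). Of its windows 42.1% occur in other genes, processed pseudogenes among them.

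Cyclin B2 had means of 0.589 ± 0.0839 CPM on chow and 3.71 ± 4.04 CPM on Chol_CA (SD, n = 4 each), the latter from 0.541 to 9.54 CPM, and rose (log2 fold change 2.597 ± 0.73, adjusted p = 0.0124), a call that was lost without Chol_CA library 0. The survivin gene Birc5 and the kinase Aurkb, both of the chromosomal passenger complex, rose by log2 fold changes of 2.12 ± 0.64 (adjusted p = 0.0185) and 2.598 ± 0.91 (adjusted p = 0.042), and both calls were lost without chow library 1 or 2 or Chol_CA library 0. That of Aurkb was also lost without chow library 3 or Chol_CA library 1 and with the length trend as a term. Within the long-leaning libraries Ccnb2 was at 0.93 (adjusted p = 0.439) and Birc5 at 1.29 (adjusted p = 0.201) by edgeR, and Aurkb was not tested. Cyclin A2 (Ccna2), Aurka and Plk1 were not called, with log2 fold changes of 1.56, 0.95 and 1.71. The spindle checkpoint kinases Bub1 and BubR1 (Bub1b) rose by 3.19 ± 0.74 (adjusted p = 0.00315) and 1.898 ± 0.47 (adjusted p = 0.00529), with all Chol_CA libraries above all chow libraries. Bub1 rested on 4 reads over the chow libraries and 48 over Chol_CA, and it could be tested in 6 of the alternatives, the long-leaning libraries not among them. Bub1b was at 1.21 there and not called (adjusted p = 0.172). Ccnb2, Aurkb, Bub1 and Bub1b passed the filter on low counts only through the cholic acid diets. Cdc20, the activator of the anaphase-promoting complex, was not called, at 0.99.

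Foxm1, a factor that drives mitotic genes, had 2.29, 0.277, 0.389 and 0.426 CPM on chow, 0.9403, 1.18, 0.691 and 2.66 CPM on CA and 4.64, 3.55, 2.34 and 1.08 CPM on Chol_CA. Chow library 0 lay above 1 Chol_CA library. Its rise on Chol_CA was the weakest of the 18 calls (log2 fold change 1.76 ± 0.63, adjusted p = 0.0472) and was lost without chow library 1, 2 or 3 or Chol_CA library 0, 1 or 2. Within the long-leaning libraries it was 0.82 with an adjusted p of 0.476. Sucrose libraries had 0.285, 0.652, 0.157, 0.408 and 0.4498 CPM without and 1.92, 0.302 and 0.328 CPM with cholesterol.

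Mybl1 encodes A-Myb, best known from male germ cells in the mouse. It stood at 0.143, 0.138, 0.648 and 0.426 CPM on chow, 3.41, 1.18, 2.07 and 2.02 CPM on CA and 3.84, 2.52, 2.44 and 1.73 CPM on Chol_CA. Both cholic acid diets were above chow in each library and rose (log2 fold change 2.6001 ± 0.51, adjusted p = 0.0026 on CA and log2 fold change 2.87 ± 0.51, adjusted p = 0.000268 on Chol_CA). Mybl1 passed the filter on low counts only through these 2 diets. Both calls held in each alternative in which Mybl1 was tested, the fit without a filter among them. The HS libraries had 0.854, 0.489, 0.941, 0.136 and 0.2999 CPM and the HS_Chol libraries 0.319, 0.453 and 0.164 CPM. Mybl2 encodes B-Myb, the family member that joins MuvB in dividing cells. It had 0 reads in the 4 chow libraries and 8 over HS, 4 over HS_Chol, 11 over CA and 19 over Chol_CA. Set against a floor of 3 reads over the chow group, these were 2.30-fold on HS, 2.03-fold on HS_Chol, 2.91-fold on CA and 5.13-fold on Chol_CA. The ratios leave out the counting error of the reads on these diets. Without a filter on low counts edgeR called Mybl2 on CA (adjusted p = 0.0341) and on Chol_CA (adjusted p = 0.00205). In that fit it was not called on HS (adjusted p = 0.264) or HS_Chol (adjusted p = 0.203).

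Whether cholesterol acted differently with cholic acid than with sucrose was tested as the difference of the 2 cholesterol effects. No member was called (0 of 36, lowest adjusted p = 0.0746, 2 with an unadjusted p under 0.05), where 2.47% of all genes were higher and 3.53% lower, and DESeq2 called 1. On sucrose, cholesterol left 27 of 36 members above 0, with a median log2 fold change of 0.45. Without HS_Chol library 0 the median was 0.143 with 20 of 37 above 0, and within the long-leaning libraries it was 0.291. The lowest adjusted p there belonged to Mcm4 (log2 fold change 0.75 ± 0.22, adjusted p = 0.0942), and groups did not overlap for 4 members that were higher and 1 that was lower, against 6.33% and 5.43% of all genes.

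On the high sucrose diet alone 26 of 36 members were below 0, with a median of -0.42 against 0.02 over all genes. Without chow library 0 the median was -0.18. The largest of the mitotic differences were -1.961 ± 0.84 for Aurka, -1.38 ± 0.805 for Kif20a and -1.33 ± 0.61 for Top2a, and the adjusted p-values of these 3 were 0.383, 0.546 and 0.415. Chow library 0 was the highest chow library for each, at 3.15, 4.30 and 3.72 CPM. The other chow libraries held 0 to 1.42, 0.519 to 0.692 and 1.04 to 2.70 CPM. For Kif20a these lay within the HS range of 0.272 to 0.854 CPM.

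Other genes of the cycle were listed by role. Of 43 tested genes among 66 other mitotic genes, 15 rose and none fell on Chol_CA against chow, where 15% of all genes rose and 9.35% fell. The median log2 fold change was 1.17, against a median close to 0 over all genes. The 3 with the lowest adjusted p were the condensin subunit Ncapg2 (2.82 ± 0.35, adjusted p = 6.87e-06), the passenger protein Incenp (2.14 ± 0.38, adjusted p = 0.000311) and the midzone kinesin Kif23 (2.67 ± 0.57, adjusted p = 0.00149). On CA none of the 43 rose by edgeR (4 at an unadjusted p under 0.05) and 1 fell, where 5.22% of all genes rose and 4.61% fell. Of 52 tested among 60 other replication and repair genes, 16 rose on Chol_CA, led by E2f2 (1.66 ± 0.37, adjusted p = 0.00228), 2810417H13Rik (3.34 ± 0.801, adjusted p = 0.00386) and the chromatin factor Atad2 (0.91 ± 0.23, adjusted p = 0.00599), and 1 fell, Mcm10 (-1.09 ± 0.21, adjusted p = 0.000552). The median was 0.55. On CA 0 of the 52 rose by edgeR (8 at an unadjusted p under 0.05) and 2 fell.

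Of 27 tested genes that brake the cycle or answer p53, 4 rose and 2 fell on Chol_CA, shares close to the 15% and 9.35% of all genes. The BH3-only gene Pmaip1 (3.45 ± 0.49, adjusted p = 2.75e-05), the pocket protein gene Rbl1 (1.51 ± 0.31, adjusted p = 0.000981) and the death receptor gene Eda2r (2.06 ± 0.46, adjusted p = 0.00228) led the higher ones, and Plk3 (-1.59 ± 0.43, adjusted p = 0.00901) and Trp53inp1 (-1.13 ± 0.32, adjusted p = 0.0128) fell. On CA 8 of these 27 rose and 1 fell, where 5.22% of all genes rose and 4.61% fell, and the median was 0.23. Among 27 tested cyclins, kinases and factors not in the other lists, E2f4 rose on Chol_CA (0.42 ± 0.103, adjusted p = 0.00476) and 2 fell on CA. Of 62 replication histone genes, 4 had enough reads to test. None was called on either cholic acid diet against chow by edgeR, with 1 at an unadjusted p under 0.05 on CA and 2 on Chol_CA.

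Markers of several other cell types were higher on the cholic acid diets, those of Kupffer cells on both. Summed over 14 genes, monocyte and macrophage markers held 91.8 to 184 CPM on chow, 170 to 434 on CA and 721 to 3102 on Chol_CA, where libraries 0 and 1, the 2 with the highest mitotic sums (132 and 94.4 CPM), held 2241 and 3102 CPM and libraries 2 and 3 held 969 and 721 CPM. All 14 rose on Chol_CA and 6 of 14 on CA, where 15% and 5.22% of all genes tested rose. Kupffer cell markers (12 in the table) held 169 to 233 CPM on chow, 561 to 954 on CA and 1083 to 2897 on Chol_CA, with 11 called higher on each diet. T and NK cell markers (15 genes) held 2.98 to 9.94 CPM on chow, 4.34 to 36.3 on CA and 13.6 to 76.9 on Chol_CA, and neutrophil markers (10 genes) 0.286 to 2.70, 2.07 to 7.17 and 12.0 to 85.4 CPM, with Ly6g and Retnlg at 0 on chow.

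Stellate cell and fibroblast markers (13 genes) held 251 to 520 CPM on chow, 229 to 375 on CA and 551 to 918 on Chol_CA, and bile duct markers (11 genes) 96.8 to 149, 175 to 207 and 174 to 402 CPM. Of 9 bile duct markers tested, 4 were above 0 on CA (median log2 fold change -0.03) and 5 on Chol_CA (median 0.79). On CA 2 of the 9 were called higher and on Chol_CA 3, against 5.22% and 15% of all genes. Spp1 is in both the bile duct list and the monocyte and macrophage list. Hepatocyte markers (10 genes) were present throughout and held 130879 to 132125 CPM on chow, 88310 to 122047 on CA and 60842 to 82491 on Chol_CA. B and plasma cell markers (8 in the table, Tnfrsf17 at 0) held 108 to 194 CPM on chow and 89.1 to 128 on Chol_CA, red cell markers (10 in the table) 214 to 295 and 134 to 310, and endothelial markers (12 genes) 217 to 426 and 161 to 491. The part of these cell types in the results for the members was not tested. CA library 3, which had the highest mitotic sum of its diet (74.0 CPM against 20.8, 30.4 and 19.9), held 295 CPM of monocyte and macrophage markers, within the range of the other 3 CA libraries, and chow library 0 held the lowest sum of its diet, 91.8 CPM.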

How the data were processed

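Whole-liver total RNA was sequenced from stranded libraries (100 ng input, single 50-base reads, per the labels' protocols). The authors aligned reads with STAR 2.6.1c to mm10 with its GeneCounts option and deposited raw counts per gene, per the submitters' processing notes and the series' design text. Which strand column was deposited is not given in the sources used here. The table held 23 columns, of which 20 could be tied to a diet by name and 3 to no labelled sample and were not used.

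Standard errors were taken as the absolute log2 fold change over the root of the F statistic. Counts were tested as deposited with edgeR 4.0.16 in R 4.3.3 (TMM, filterByExpr with a minimum count of 10, robust quasi-likelihood, all 20 libraries with 1 mean per diet, Benjamini-Hochberg over 12595 genes). The test recovered changes built into simulated data. DESeq2 1.42.0, other filters, the compared diets alone, left-out libraries and the libraries' length trend were alternatives. Totals of 6110484 to 10244277 reads set the precision. No 2 columns were identical. CPM levels use TMM-scaled totals. Exact 95% intervals cover counting error only. Gene models and transcript lengths come from GENCODE M21, and promoters from RefSeq (GRCm38.p6), with motifs searched as exact letters on both strands.

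The members and lists were chosen with earlier results of these data known. Values in every library are given for Mki67, Top2a, Ccnb1, Cdk1, Mcm5, Pcna, Rrm2, Tyms, Ccnd1, Ccne1, Cdkn1a and Foxm1 and for the 5 called members with the lowest adjusted p in each comparison. From the other lists, up to 3 called genes per direction with the lowest adjusted p on Chol_CA were named. The level of 1 gene of the cell type marker lists is not reported here.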

Additional observations from a re-analysis of the deposited data

Results flagged for a closer look

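In groups of 4 or 5 libraries, the highest or lowest value was compared with the others by Dixon's gap ratio for 19 named members and for the summed levels. Of 84 groups 9 exceeded the 95% critical value, where chance gives about 5%.

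In the chow diet, library 0 stood above the other 3 for Mki67 (11.7 CPM against 1.66 to 2.20) and for Foxm1 (2.29 CPM against 0.277 to 0.426). In the cholic acid diet, library 3 stood above the other 3 for Top2a (8.82 CPM against 2.23 to 2.83), Ccnb1 (0.850 CPM against 0.0987 to 0.118) and Mcm5 (4.67 CPM against 2.94 to 3.18). Library 2 of that diet had the lowest summed replication and nucleotide members, 54.7 CPM against 68.4 to 70.2 CPM. In the high sucrose diet, library 2 stood above the other 4 for Mcm3 (5.33 CPM against 3.95 to 4.27) and Mcm7 (11.8 CPM against 6.83 to 8.16), and library 3 stood below them for Tyms (1.90 CPM against 3.61 to 3.99). No cause was tested.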

How the results depend on the processing

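No paired analysis was possible because the table numbers its columns from 0 and the labels number the samples from 1, so that no column could be tied to a replicate number. Counts of called members kept their size, within 1.5 times, under DESeq2 (except the difference of cholesterol effects, 1 called), DESeq2 size factors and a stricter filter. With only the compared diets in the fit, fewer samples set the spread, and the members called higher fell to 2 on CA, 10 on Chol_CA and 2 for Chol_CA against CA. Over all genes 4.24%, 11.9% and 8.85% were higher there. Without a filter the last comparison called 4 members and 6.63% of all genes higher. In libraries leaning towards long transcripts, where the median fold changes were also smaller, Chol_CA called 6 higher against chow, and 2 higher and 1 lower (Cdkn2c) against CA. Over all genes 12.7% were higher there against chow, and 13.9% higher and 13.8% lower against CA. With the trend as a term 1 member (Tk1) was called lower on Chol_CA. Leaving out 1 library gave 4 to 5 higher on CA, 10 to 22 on Chol_CA, 2 to 11 for Chol_CA against CA and 0 to 1 for the difference of cholesterol effects. Leaving out chow library 0 and CA library 3 together, chosen after seeing the data, gave 4, 21 and 12, where 1.58%, 12.7% and 9.56% of all genes were higher.

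No called fold change turned its direction. Uncalled ones were followed only for Mki67, Top2a, Cdk1, Mcm5, Pcna, Rrm2, Tyms, Ccnd1, Ccne1, Cdkn1a and Foxm1. Members not followed turned too: for Chol_CA against CA 33 of 36 were above 0 with all libraries, and 18 of 34 among long-leaning ones. Of those followed, these turned. On CA, Ccne1 turned to 0.12 with those 2 libraries out (-0.33 to 0.40 with 1 library out), Tyms to 0.011 among long-leaning libraries (-0.41 to 0.077 with 1 out), and Cdk1 to -0.12 without CA library 3 (to 0.77 at most with 1 out). On Chol_CA, Tyms turned to -0.018 among long-leaning libraries and -0.019 with the trend term (-0.24 to 0.40 with 1 out). For Chol_CA against CA, Top2a turned to -0.18, Cdk1 to -0.24 and Tyms to -0.029 among long-leaning libraries, and with 1 library out Tyms ran from -0.034 to 0.40 and Cdkn1a from -0.12 to 0.81. The cause was not tested. Depth limits members under about 1 CPM, which rest on fewer than 10 reads in most libraries.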

Other observations

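Growth factors and their receptors were listed alongside the members (41 genes, 33 tested). On cholesterol with cholic acid 10 rose and 6 fell against chow. The higher ones included the macrophage growth factor receptor Csf1r (3.32 ± 0.38, adjusted p = 3.60e-06), tumour necrosis factor (5.71 ± 0.79, adjusted p = 2.09e-05) and the ligand Csf1 (1.498 ± 0.21, adjusted p = 2.33e-05). The lower ones included Igf1 (-0.62 ± 0.13, adjusted p = 0.00114), the Wnt-linked receptor Lgr5 (-1.24 ± 0.27, adjusted p = 0.00187) and Lgr4 (-0.77 ± 0.18, adjusted p = 0.00382). On cholic acid alone 1 rose, Csf1r (1.71 ± 0.37, adjusted p = 0.00466), and 5 fell. The largest of these falls, named after their values were seen, were those of the epidermal growth factor receptor Egfr (-2.29 ± 0.58, adjusted p = 0.0141) and of Lgr5 (-2.21 ± 0.29, adjusted p = 5.18e-05), while Ccnd1 was higher on the same diet. Over all genes tested, 15% rose and 9.35% fell on Chol_CA and 5.22% rose and 4.61% fell on CA. The median of this list was 0.07 on Chol_CA and -0.02 on CA.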
